A study of Mus musculus with 12 samples.

Results

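The genes described are the replication-dependent histone genes, which encode the H1, H2A, H2B, H3 and H4 proteins that package newly copied DNA. They were taken as every row of the count table whose symbol starts with Hist1h, Hist2h, Hist3h or Hist4 and that had a count of at least 10 in 3 or more libraries. This gave 68 of 71 rows with such a symbol, in a table of 46517 rows. The 3 rows below that level were Hist1h2ba, Hist1h2aa and Hist2h3c1, with counts of 0 to 7 per library. All 68 rows passed the filter on low counts. They comprised 54 rows of the Hist1 cluster on chromosome 13, 10 of the Hist2 cluster on chromosome 3, 3 of Hist3 on chromosome 11 and 1 of Hist4 on chromosome 6. By family there were 6 H1, 19 H2A, 19 H2B, 11 H3 and 13 H4 rows. The annotation lists 64 of them as protein coding, 2 as processed pseudogenes (Hist1h2al and Hist3h2bb-ps), 1 as an unprocessed pseudogene (Hist1h2aj) and 1 as a lincRNA.

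RNA was sequenced from sorted mouse LSK cells, the lineage-negative bone marrow cells with Sca-1 and c-Kit on their surface that hold the blood stem and early progenitor cells. There were 12 libraries, 3 each labelled p300KO_Tet2KO, Tet2KO, p300KO and WT. The study's methods give p300KO_Tet2KO as Mx1-Cre with Ep300 fl/fl on a Tet2-/- background, Tet2KO as Ep300 fl/fl with Tet2-/-, p300KO as Mx1-Cre with Ep300 fl/fl, and WT as Ep300 fl/fl without Cre, whereas the design text of the series names Mx1-Cre for all groups. All mice were C57BL/6, 8 to 10 weeks old, and had received poly(I:C), which induces Mx1-Cre in blood cells and in other interferon-responsive tissues, 2 weeks earlier. Ep300 encodes the acetyltransferase p300, and Tet2 encodes an enzyme that oxidizes methylated cytosine. The study's methods call the libraries of a group independent biological replicates, and the labels do not tie a library to a mouse.

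Replication-dependent histone mRNAs are made mainly in S phase, and in dividing cells they end in a conserved stem-loop in place of a poly(A) tail. The stem-loop is bound by the stem-loop binding protein, which carries the message through processing and translation and leads to its decay when DNA synthesis stops. The genes lie in clusters of many copies whose coding sequences are close to each other. Per the study's methods, ribosomal RNA was depleted and libraries were then made with the Universal Plus mRNA-Seq kit. Depletion of ribosomal RNA alone leaves transcripts that lack a poly(A) tail. Whether a later step selected for poly(A) tails is not given in the sources used here. How fully such transcripts were kept is thus not known.

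Total counts per library ran between 18773871 and 79573667, with lowest totals of similar size in the 4 groups. Ep300 was at 166 to 179 CPM (counts scaled by TMM library size) in p300KO_Tet2KO, 313 to 350 in Tet2KO, 176 to 233 in p300KO and 285 to 340 in WT. Tet2 was at 101 to 145 CPM in p300KO_Tet2KO, 38.6 to 56.6 in Tet2KO, 139 to 181 in p300KO and 120 to 139 in WT. The libraries labelled p300KO_Tet2KO thus held Tet2 RNA at levels above those of Tet2KO, although both carry the Tet2 label. These are counts over the whole gene, and the state of the Tet2 allele was not tested. Kit was at 724 to 1056 CPM and Cd34 at 706 to 881 CPM in the 12 libraries, while Ly6a, which encodes Sca-1, was at 14.7 to 32.8 CPM. Other LSK markers differed between groups. Flt3 was at 199 to 267 CPM in p300KO_Tet2KO and 290 to 525 in Tet2KO. It was at 326 to 361 in p300KO and 676 to 703 in WT. Gata2 was at 219 to 305 CPM in p300KO_Tet2KO and 187 to 194 in Tet2KO. It was at 273 to 361 in p300KO and 164 to 193 in WT. Meis1 was at 362 to 459 CPM in p300KO_Tet2KO, 274 to 385 in Tet2KO, 367 to 405 in p300KO and 274 to 331 in WT. Cd79a, a B cell marker, was at 1.20 to 5.17 CPM in p300KO_Tet2KO, 3.44 to 4.95 in Tet2KO, 0.658 to 5.16 in p300KO and 10.3 to 21.1 in WT. Ms4a1, another B cell marker, ran the other way, at 0.157 to 1.63 CPM in p300KO_Tet2KO, 0.0184 to 0.620 in Tet2KO, 0.0387 to 0.307 in p300KO and 0 to 0.0830 in WT. Of the granulocyte markers, Elane was at 77.4 to 106 CPM in p300KO_Tet2KO, 71.6 to 294 in Tet2KO, 69.5 to 155 in p300KO and 30.7 to 116 in WT, and the list of 4 summed to 1658 to 2088 CPM in p300KO_Tet2KO, 2079 to 4448 in Tet2KO, 1457 to 2637 in p300KO and 1277 to 1798 in WT. The 2 megakaryocyte markers, Itga2b and Pf4, summed to 139 to 198 CPM in p300KO_Tet2KO, 111 to 146 in Tet2KO, 218 to 235 in p300KO and 97.9 to 117 in WT. Cd4 was at 3.48 to 8.59 CPM in the 12 libraries, while Cd3e, Cd8a, Ly6g, Prm1 and Prm2 stayed below 0.168 CPM. No histone gene is used as a marker in these lists, and the part of other cells in the histone values was not tested.

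Hist1h2al was singled out for its level in the groups with the Tet2 label, so its differences there are given as a description with no test. It is annotated as a processed pseudogene (ENSMUSG00000091383.1) at chr13:51202727-51203065 on the minus strand in mm10, 27.4 Mb from the nearest other member, Hist1h1a. Its closest copies are not near it. Over its 339 bases it matches the coding sequence of Hist2h2aa1 (chr3:96245497-96246082, plus strand) and of Hist2h2aa2 (chr3:96239749-96240276, minus strand) at 337 bases each, and that of Hist2h2ac (chr3:96220361-96220880, minus strand) at 333. No H2A row of the main Hist1 cluster was above 92.7% identity to it. The first 240 bases are shown because within the aligned stretch reads of these copies can be told apart only at the differing bases. The first sequence has capitals at the bases that differ from Hist2h2aa1, and the other 2 have capitals at the bases that differ from Hist1h2al. Coding sequences of Hist2h2aa1 and Hist2h2aa2 are the same at all 393 bases, so only the first is printed.
Hist1h2al: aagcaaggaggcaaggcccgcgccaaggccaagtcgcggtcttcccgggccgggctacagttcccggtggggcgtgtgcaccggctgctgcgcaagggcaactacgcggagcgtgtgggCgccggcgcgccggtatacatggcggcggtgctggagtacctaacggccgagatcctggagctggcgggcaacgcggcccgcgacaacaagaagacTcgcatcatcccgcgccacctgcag
Hist2h2aa1: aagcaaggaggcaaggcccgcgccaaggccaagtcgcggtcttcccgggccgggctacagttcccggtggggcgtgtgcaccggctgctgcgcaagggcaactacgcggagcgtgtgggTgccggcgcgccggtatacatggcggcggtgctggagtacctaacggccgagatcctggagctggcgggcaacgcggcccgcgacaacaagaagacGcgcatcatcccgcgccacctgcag
Hist2h2ac: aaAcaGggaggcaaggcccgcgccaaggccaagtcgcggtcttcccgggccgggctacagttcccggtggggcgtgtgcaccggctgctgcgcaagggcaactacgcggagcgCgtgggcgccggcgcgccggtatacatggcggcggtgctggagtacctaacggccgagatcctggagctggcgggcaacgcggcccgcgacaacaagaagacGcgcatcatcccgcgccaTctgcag
Counted from 1 at the 5′ end of Hist1h2al, with the base of the named gene first and that of Hist1h2al last, the differences from Hist2h2aa1 and Hist2h2aa2 are T120C and G216T. Those from Hist2h2ac are A3G, G6A, C114T, G216T, T234C and A297G, the last of which lies beyond the bases shown. Reads were paired and 100 bases long. Of the 240 windows of 100 bases in Hist1h2al, 46 (19.2%) were found in another annotated gene, and 80.8% were not. Of the 429 windows in Hist2h2aa2, 100.0% were shared, and each of them with Hist2h2aa1. Of the 487 windows in Hist2h2aa1, 88.3% were shared.

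Hist1h2al was high in all libraries with the Tet2 label and near 0 in the others. It stood at 243, 207 and 230 CPM in p300KO_Tet2KO, 178, 130 and 169 CPM in Tet2KO, 0.310, 0.321 and 0.453 CPM in p300KO and 0.176, 0.332 and 0.446 CPM in WT. The log2 fold change was 9.23 (SE 0.23) in Tet2KO vs WT, 9.35 (SE 0.23) in p300KO_Tet2KO vs p300KO and 9.74 (SE 0.23) in p300KO_Tet2KO vs WT. In the contrasts that keep the Tet2 label fixed it was 0.51 (SE 0.14, adjusted p = 0.0645 by edgeR) in p300KO_Tet2KO vs Tet2KO, with every p300KO_Tet2KO library above every Tet2KO library, and 0.38 in p300KO vs WT, with groups that overlap. The 3 p300KO_Tet2KO libraries thus stood with Tet2KO for this row while their Tet2 RNA stood apart from Tet2KO.

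Hist2h2aa2, which encodes an H2A protein, ran the other way. It was at 4.33, 45.0 and 18.4 CPM in p300KO_Tet2KO, 15.0, 46.1 and 26.9 CPM in Tet2KO, 196, 304 and 174 CPM in p300KO and 159, 99.4 and 151 CPM in WT. All 6 libraries with the Tet2 label were below all 6 without it. It fell in p300KO_Tet2KO vs p300KO (log2 fold change -3.27, SE 0.62, adjusted p = 0.0362 by edgeR) and in p300KO_Tet2KO vs WT (-2.55, SE 0.60, adjusted p = 0.0196 by edgeR), and in Tet2KO vs WT the value was -2.22 (SE 0.59, adjusted p = 0.13 by edgeR). The call in p300KO_Tet2KO vs p300KO was lost without any 1 of the p300KO libraries, without p300KO_Tet2KO replicate 3 or with only the 6 libraries compared, and that in p300KO_Tet2KO vs WT without WT replicate 1 or p300KO_Tet2KO replicate 3. The antisense gene Gm20632 overlaps it, at 8.57 to 33.6 CPM in the 12 libraries, and whether counting used the strand is not given in the sources used here.

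Hist2h2aa1, the copy that carries most of the counts, did not follow either row. It was at 299, 599 and 507 CPM in p300KO_Tet2KO, 385, 482 and 578 CPM in Tet2KO, 537, 599 and 529 CPM in p300KO and 289, 227 and 631 CPM in WT. Its levels in p300KO_Tet2KO, Tet2KO and p300KO all lay within the range of WT, and it was not called between any groups (log2 fold changes between -0.24 and 0.54, adjusted p between 0.474 and 0.97 by edgeR). Gm20634 overlaps it on the same strand, at 29.4 to 68.4 CPM. Hist2h2ac was at 121, 162 and 175 CPM in p300KO_Tet2KO, 116, 131 and 163 CPM in Tet2KO, 183, 207 and 154 CPM in p300KO and 118, 77.5 and 142 CPM in WT, and its groups overlapped across the Tet2 label.

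Summed over Hist1h2al and Hist2h2aa2, the level was 247, 252 and 248 CPM in p300KO_Tet2KO, 193, 176 and 196 CPM in Tet2KO, 196, 305 and 174 CPM in p300KO and 159, 99.7 and 152 CPM in WT. The log2 ratio of the Tet2KO mean over the WT mean was 0.46 for this sum, where the log2 fold change of Hist1h2al alone was 9.23. Over Hist1h2al, Hist2h2aa1 and Hist2h2aa2 together the level was 547, 852 and 755 CPM in p300KO_Tet2KO, 578, 658 and 774 CPM in Tet2KO, 733, 904 and 704 CPM in p300KO and 448, 327 and 783 CPM in WT. The log2 ratio of means of that sum was 0.37 in Tet2KO over WT and -0.12 in p300KO_Tet2KO over p300KO, and the groups overlapped. With Hist2h2ac added and the 4 rows fitted as 1, the log2 fold change was 0.35 (SE 0.25) in Tet2KO vs WT and -0.14 (SE 0.25) in p300KO_Tet2KO vs p300KO. Groups with and without the Tet2 label thus differed more in Hist1h2al and Hist2h2aa2 taken singly than in the sums. Without Hist1h2al, the sum of Hist2h2aa1 and Hist2h2aa2 had a log2 ratio of means of -0.02 in Tet2KO over WT and -0.67 in p300KO_Tet2KO over p300KO. Hist1h2al was near 0 without the Tet2 label, so its log2 fold change is large beside that of any sum with higher rows. The sums therefore cannot show whether copies trade reads, which was not tested. Hist2h2aa1 lies 37.2 Mb from Tet2 on chromosome 3.

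**Figure D1:**
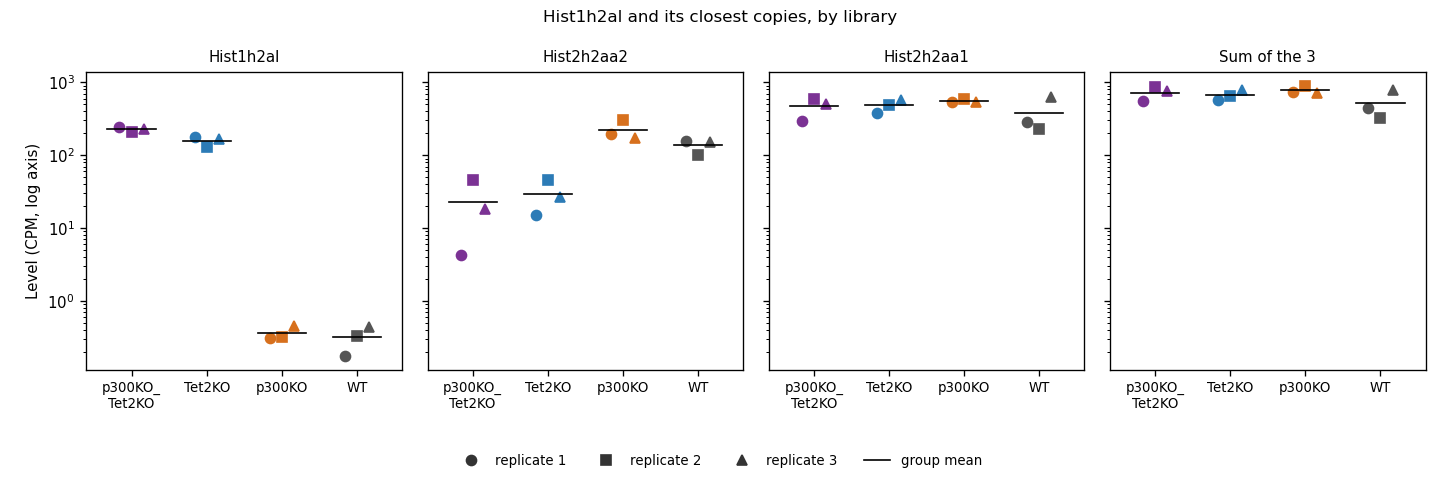
Levels of Hist1h2al, Hist2h2aa2, Hist2h2aa1 and the sum of the 3 in CPM on a log axis, by group. Each symbol is 1 library, its shape gives the replicate number and the bar is the group mean; Hist1h2al is at 130 to 243 CPM in the 6 libraries with the Tet2 label and under 0.5 CPM in the rest, Hist2h2aa2 runs the other way, and the groups overlap in the sum.

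The genes that neighbour Hist1h2al did not share its pattern. Of 11 rows within 500 kb, 6 were tested: Spin1, Nxnl2, S1pr3, Cks2, Secisbp2 and Sema4d. None was called in Tet2KO vs WT or in p300KO_Tet2KO vs p300KO, where their log2 fold changes ran between -0.63 and 0.39. Spin1, a reader of histone methylation 50.2 kb away, was at 159 ± 6.76 CPM in p300KO_Tet2KO, 170 ± 20.7 in Tet2KO, 157 ± 17.3 in p300KO and 182 ± 6.92 in WT (SD, n = 3 each). The calls among them were in the contrasts that carry the p300KO label: S1pr3, a sphingosine-1-phosphate receptor, fell in p300KO_Tet2KO vs Tet2KO (-1.27, adjusted p = 0.00227 by edgeR), and Sema4d, a semaphorin, fell in p300KO vs WT (-0.67, adjusted p = 0.00266 by edgeR) and in p300KO_Tet2KO vs Tet2KO (-0.52, adjusted p = 0.0107 by edgeR). S1pr3 (-0.88, adjusted p = 0.00916) and Sema4d (-0.72, adjusted p = 0.000604 by edgeR) also fell in p300KO_Tet2KO vs WT.

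Another pair of rows differed singly and far less in sum, among the H4 genes. Hist1h4m (chr13:21811746-21812147, plus strand) and Hist1h4n (chr13:21831767-21832196, minus strand) have the same 312 coding bases, and their transcripts match at 401 of 402 aligned bases. The 1 difference is A36G (Hist1h4n base first, counted from the 5′ end of Hist1h4m), which lies just ahead of the coding sequence that starts at base 39. The 21 bases around it are shown with that base in capitals.
Hist1h4m: ttttgtcttcGtcatgtctgg
Hist1h4n: ttttgtcttcAtcatgtctgg
Hist1h4m was at 1.93, 1.60 and 0.654 CPM in p300KO_Tet2KO, 1.14, 0.387 and 1.68 CPM in Tet2KO, 294, 172 and 0.855 CPM in p300KO and 122, 76.0 and 5.74 CPM in WT. It was low in all 6 libraries with the Tet2 label, and also in p300KO replicate 3 and WT replicate 3, so p300KO overlapped the groups with the Tet2 label. Hist1h4n was at 298, 337 and 369 CPM in p300KO_Tet2KO, 323, 369 and 465 CPM in Tet2KO, 172, 297 and 415 CPM in p300KO and 131, 75.7 and 399 CPM in WT. The sum of the pair was 300.4, 339 and 370 CPM in p300KO_Tet2KO, 325, 369 and 467 CPM in Tet2KO, 466, 469 and 415 CPM in p300KO and 253, 152 and 405 CPM in WT. In p300KO the sum spanned 415 to 469 CPM where Hist1h4m alone spanned 0.855 to 294 CPM. Hist1h4m was called lower in p300KO_Tet2KO vs WT (-5.60, SE 1.47, adjusted p = 0.0329 by edgeR), and the call was lost without WT replicate 1 or 2, without any 1 of the p300KO_Tet2KO libraries, with limma-voom and with a sex covariate. For the pair summed, the log2 fold change in that contrast was 0.32 (SE 0.26), of the other sign.

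**Figure D2:**
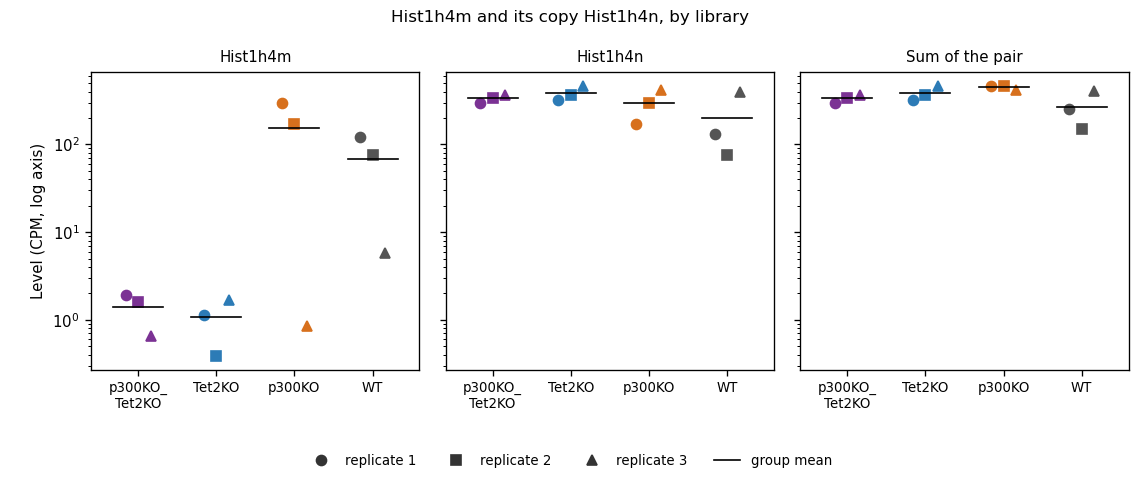
Levels of Hist1h4m, Hist1h4n and their sum in CPM on a log axis, by group. Each symbol is 1 library, its shape gives the replicate number and the bar is the group mean; Hist1h4m is under 6 CPM in the 6 libraries with the Tet2 label and in replicate 3 of p300KO and WT, and the sum lies between 152 and 469 CPM.

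How far the members can be told apart differed between them. A median of 33.5% of the 100-base windows of a member was found in another annotated gene. In 25 of 68 members the share was 50% or more, and in 6 no window was shared. Linking members with at least 300 aligned transcript bases at 98% identity or more gave 7 groups that held 42 members, the largest the 13 H2A genes of the main Hist1 cluster. Levels and changes of single members are uncertain to that extent, and 25 members also overlap another gene of the table.

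The histone stem-loop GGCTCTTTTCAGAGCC, searched on the transcript strand and shown because it marks this class of mRNA, was found without mismatch in the annotated transcripts of 25 members, with 1 mismatch in 7 and with 2 in 8. In the other 28 it was not found within 2 mismatches. For several of these, such as Hist1h2bl (381 bases) and Hist1h3h (411 bases), the annotated transcript is no longer than the coding sequence. A stem-loop past the coding end could not be found there, so its absence does not show that the gene lacks it. It was read from the Hist2h2aa1 transcript as its only hairpin of 6 paired bases with a loop of 4 near the end. Without mismatch it was found in 29 of 55450 annotated genes (0.0523%). In Hist2h2aa1 and Hist2h2aa2 it ends 35 bases before the transcript end. In Hist1h2be 1861 bases follow it and in Hist1h1c 840 do, so several annotated transcripts run on past the site where histone mRNAs usually end.

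RefSeq promoter windows (250 bases before to 50 after the annotated start, GRCm38.p6) were matched for 58 members. CCAAT, on either strand, was in 49 of the 58 (84.5%), against 37.4% of 32851 promoters of all genes. It was in every window of the 6 H1, 16 H2A, 15 H2B and 9 H3 members and in 3 of 12 H4 members. TATAAA, on either strand, was in 33 (56.9%), against 13.6% of all. AAACACA was in 5 of 6 H1 members, against 7.18% of all, and GGTCC in 11 of 12 H4 members, against 45.5% of all. The first 280 bases of the window of Hist2h2aa1 (chr3:96245247-96245526, plus strand) are shown as an example, with CCAAT, its reverse complement ATTGG and TATAAA in capitals. This TATAAA lies past the annotated start, at position 12 from it. The window of Hist2h2aa2 ends just short of the matching site and was scored without TATAAA. Counts of this motif thus depend on where the start is annotated.
Hist2h2aa1 promoter: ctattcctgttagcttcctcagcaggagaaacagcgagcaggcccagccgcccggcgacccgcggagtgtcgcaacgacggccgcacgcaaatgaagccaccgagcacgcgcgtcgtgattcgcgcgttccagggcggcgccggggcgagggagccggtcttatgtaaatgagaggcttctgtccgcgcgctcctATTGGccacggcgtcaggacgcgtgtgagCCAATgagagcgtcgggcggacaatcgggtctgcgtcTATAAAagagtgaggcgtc

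By level per kb of exon, the highest members were Hist1h2ap (1184 CPM per kb), Hist1h2bg (1021), Hist2h2aa1 (805), Hist1h4n (708) and Hist1h2bk (705). They encode H2A, H2B, H2A, H4 and H2B. The highest H1 gene was Hist1h1c (617) and the highest H3 gene Hist1h3e (575). The median member was at 275 CPM per kb. Of the members outside the Hist1 cluster, Hist2h3b (566), Hist2h3c2 (437), Hist2h2bb (299) and Hist2h2ac (280.3) were also above the median. The lowest was Hist1h1t (0.671), which encodes the H1 of testis, and 4 members had a mean under 2 CPM. The ranking rests on annotated exon lengths and on counts assigned between copies. Hist1h1d, at a mean of 580 CPM over 7425 exon bases, ranked 53, and Hist1h2ao, with the same 393 coding bases as Hist1h2ap, had a mean of 1.49 CPM. Together the 68 members made up 0.798% to 1.85% of the counts of a library.

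Most members moved together from library to library. The median over members of the SD of log2(CPM + 0.5) over the 12 libraries was 0.39, and after subtracting the median member of each library it was 0.22, with a lower SD in 58 of 68. Summed over the 68 rows, the level was 11776, 15279.5 and 14859.7 CPM in p300KO_Tet2KO, 12288, 13772 and 15932 CPM in Tet2KO, 15932, 18227 and 15109.8 CPM in p300KO and 10914, 7785 and 15751 CPM in WT. WT replicate 2 was the lowest of the 12 libraries and WT replicate 3 was above every p300KO_Tet2KO library, so the WT libraries spanned more than any other group and overlapped all of them. The means were 13972 ± 1913 CPM in p300KO_Tet2KO, 13998 ± 1832 in Tet2KO, 16423 ± 1615 in p300KO and 11483 ± 4014 in WT (SD, n = 3 each). WT replicate 2 was also the lowest library in 54 of the 68 members taken singly. The 19 H2B rows summed to 2544, 2452 and 2688 CPM in p300KO_Tet2KO, 2376, 2877 and 3054 CPM in Tet2KO, 3297, 4163 and 3183 CPM in p300KO and 2155, 1486 and 3032 CPM in WT. For H2B every p300KO library was above all others, whereas the H1, H2A and H3 sums of p300KO overlapped those of p300KO_Tet2KO.

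Other RNAs that lack a poly(A) tail were also lowest in WT replicate 2. The 12 of that list, among them Rn7sk, Rn7s2 and Rpph1, summed to 10488, 14623 and 11010.2 CPM in p300KO_Tet2KO, 17308, 15316 and 13603 CPM in Tet2KO, 15046, 20107 and 20364 CPM in p300KO and 10230.0, 4766 and 16362 CPM in WT. The 21 genes of S phase and DNA replication did not show this: they summed to 3974, 3131 and 3250.1 CPM in p300KO_Tet2KO, 2491, 3451 and 3297 CPM in Tet2KO, 3623, 3076 and 3408 CPM in p300KO and 3793, 3509 and 3775 CPM in WT. Within Tet2KO the libraries' order of the sum of 12 was the reverse of that of the histone sum. The part of these RNAs in the histone values was not tested. In bulk samples, fewer cells in S phase and less histone RNA per cell cannot be told apart.

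**Figure D3:**
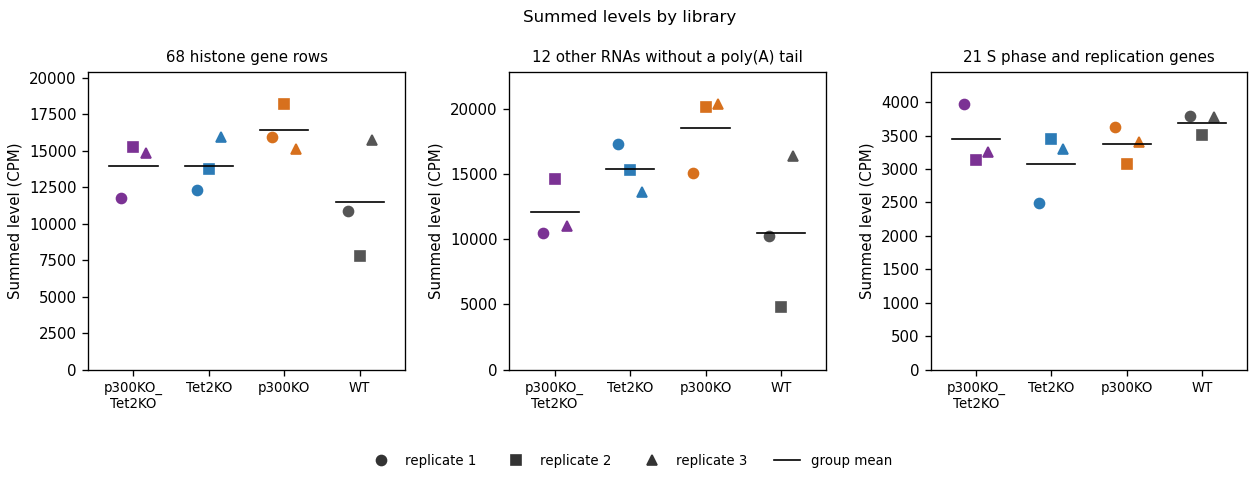
Summed levels in CPM (linear axes from 0) of the 68 histone gene rows, of 12 other RNAs without a poly(A) tail and of 21 S phase and replication genes, by group. Each symbol is 1 library, its shape gives the replicate number and the bar is the group mean; WT replicate 2 is the lowest library in the first 2 panels, at 7785 and 4766 CPM, and not in the third.

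In p300KO vs WT, 64 of 68 members had a log2 fold change above 0, where 52.4% of all 17842 genes tested did. The median member was at 0.54 and the median gene at 0.01. By family the medians were 0.49 (H1), 0.45 (H2A), 0.65 (H2B), 0.43 (H3) and 0.59 (H4). Of the members, 1 was called, where 3.91% of all genes were: it was higher, where 1.06% of all genes were called higher, and 0 were called lower, where 2.85% were. At an unadjusted p under 0.05 there were 29 members (42.6%), where 16.2% of all genes were. Every p300KO library was above every WT library in 18 members (26.5%), where 10.6% of all genes were, and below in 0, where 13.2% were. The count of calls depended on WT replicate 3: without it 26 members were called, where 3.5% of all genes were, and the median was 0.85, while without WT replicate 2 there was 1 call and a median of 0.30. DESeq2 called 13 members, where it called 6.83% of all genes, and limma-voom 7, where it called 4.89%.

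The member called in p300KO vs WT was Hist1h2bq, which encodes H2B (log2 fold change 1.24, SE 0.19, adjusted p = 0.00371 by edgeR). It was at 23.5, 32.1 and 28.3 CPM in p300KO and 9.38, 12.1 and 14.4 CPM in WT, with no overlap, and it was called under each of the 14 alternatives that keep it as a row of its own, and not with near-identical copies summed. Of its windows, 94.8% are shared with Hist1h2br, which has the same 405 coding bases. Hist1h2br was at 247, 385 and 279.6 CPM in p300KO and 159, 115 and 306 CPM in WT (0.66, SE 0.29, adjusted p = 0.276 by edgeR). Summed, the pair was at 270.1, 417 and 308 CPM in p300KO and 169, 127 and 320.3 CPM in WT, and the groups overlapped. The next highest member was Hist1h4m (1.18, adjusted p = 0.68 by edgeR). The members at the other end were Gm42743 (-0.33, adjusted p = 0.799 by edgeR) and Hist3h2ba (-0.33, adjusted p = 0.744 by edgeR), and neither was called.

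In Tet2KO vs WT, 63 of 68 members were above 0, where 50.1% of all genes were, and the median member was at 0.32. By family the medians were 0.13 (H1), 0.30 (H2A), 0.32 (H2B), 0.31 (H3) and 0.45 (H4). The median was 0.60 without WT replicate 3 and 0.08 without WT replicate 2, and leaving out each library in turn gave 47 to 64 members above 0. Hist1h2al, singled out for its level in this contrast, is left out of the counts that follow, which are over the other 67 members. Every Tet2KO library was above every WT library in 8 of them (11.9%), where 11% of all genes were, and below in 2, Hist2h2aa2 and Hist1h4m, where 10.4% were. Of the 67, 1 was called, the lincRNA Gm42743, which was higher. This row met the count rule for members only with the libraries of the Tet2 label, so its call is a description only. Apart from this row no member was called, where 0.633% of all genes were, 0.482% higher and 0.151% lower. At an unadjusted p under 0.05 there were 13 of the 67 (19.4%), where 12.9% of all genes were. Without WT replicate 3 there were 4 calls, where 0.698% of all genes were called. Hist1h4m (-6.14, SE 1.51, adjusted p = 0.103 by edgeR) was at the low end and was not called. Among the rest, Hist3h2bb-ps was at 1.17 (adjusted p = 0.242 by edgeR).

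Gm42743 (ENSMUSG00000050936.5, chr3:96269721-96279001, plus strand) carries the symbol Hist2h2bb in the table, and overlaps the coding gene of that name on the same strand. It was at 2.45, 2.17 and 2.66 CPM in p300KO_Tet2KO, 2.73, 1.97 and 1.28 CPM in Tet2KO, 0.310, 0.167 and 0.402 CPM in p300KO and 0.477, 0.166 and 0.335 CPM in WT. All libraries with the Tet2 label were above all those without it. Its count was at least 10 in 8 of the 12 libraries, among them all with the Tet2 label, and too few of the others to meet the rule of 3. It thus became a member through the groups where it is high, and its calls across that label, here and in the counts of calls, are a description only. Its log2 fold change was 2.56 (SE 0.42) in Tet2KO vs WT, 3.16 (SE 0.45) in p300KO_Tet2KO vs p300KO and 2.82 (SE 0.43) in p300KO_Tet2KO vs WT. In Tet2KO vs WT the call was lost without Tet2KO replicate 1 or WT replicate 2 or with only the 6 libraries compared, and in p300KO_Tet2KO vs p300KO without p300KO replicate 2.

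In p300KO_Tet2KO vs Tet2KO, 31 of 68 members were above 0, where 53.4% of all genes were, and the median member was at -0.03. Leaving out each library in turn gave medians between -0.12 and 0.10 and 20 to 42 members above 0. By edgeR 0 members were called, where 3.9% of all genes were called, 1.01% higher and 2.89% lower, and 1 member had an unadjusted p under 0.05, where 16.5% of all genes did. DESeq2 and limma-voom called 1 member each, Hist1h2al, where they called 7.02% and 4.57% of all genes. Every p300KO_Tet2KO library was below every Tet2KO library in 8 members (11.8%), where 10.1% of all genes were, and above in 1, where 9.61% of all genes were. At the ends were Hist1h4m (0.53, adjusted p = 0.914), Hist1h2al (0.51), Hist3h2bb-ps (-0.66, adjusted p = 0.45) and Hist1h2ao (-1.05, adjusted p = 0.516 by edgeR). Hist1h2ao had 0 counts in WT replicate 3 and shares 92.7% of its windows with Hist1h2ap. This contrast has no WT library in it, and the family medians were 0.19 (H1), -0.01 (H2A), -0.16 (H2B), 0.02 (H3) and -0.09 (H4).

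In p300KO_Tet2KO vs p300KO, 14 of 68 members were above 0, where 51.9% of all genes were, and the median member was at -0.22, with H2B at -0.49 and H3 at -0.12. The median was -0.09 without p300KO_Tet2KO replicate 1, and leaving out each library in turn gave 10 to 27 members above 0. Over the 67 members other than Hist1h2al, every p300KO_Tet2KO library was below every p300KO library in 16 (23.9%), where 6.51% of all genes were, and above in 2, where 7.65% of all genes were. Of the 67, 3 were called, where 0.56% of all genes were. Gm42743 was called higher, which is a description only. Apart from this row no member was called higher, where 0.347% of all genes were. Called lower were 2, Hist2h2aa2 and Hist1h2bn, where 0.213% of all genes were. Hist1h2bn, which encodes H2B, was at 122, 75 and 104 CPM in p300KO_Tet2KO and 246, 232 and 163 CPM in p300KO (-1.09, SE 0.21, adjusted p = 0.0397 by edgeR). Its call was lost without p300KO replicate 1 or 2 and without p300KO_Tet2KO replicate 2 or 3, and 52.1% of its windows are shared.

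**Figure D4:**
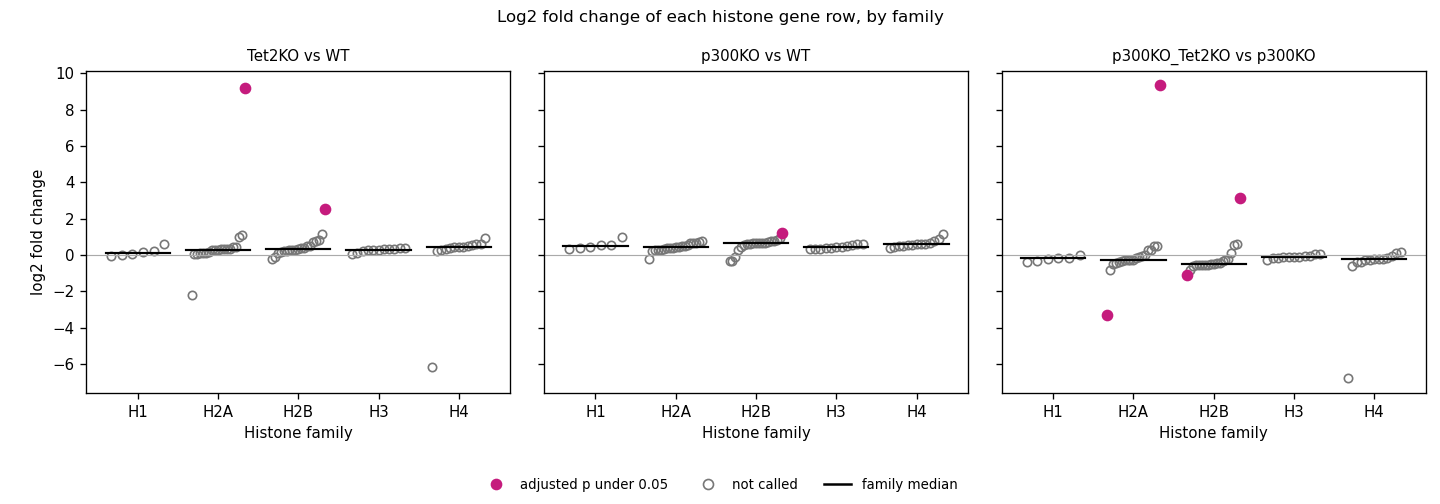
Log2 fold changes of the 68 rows by histone family (x axis) in Tet2KO vs WT, p300KO vs WT and p300KO_Tet2KO vs p300KO. Each circle is 1 row, filled where the adjusted p was under 0.05, and bars are family medians. Most rows lie close to their family median, between -0.49 and 0.65, and Hist1h2al lies near 9 in the panels that compare the Tet2 label. In those panels the filling of Hist1h2al and Gm42743 is a description and not a test, because both rows were taken up through their level there.

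In p300KO_Tet2KO vs WT, 59 of 68 members were above 0, where 53.3% of all genes were, and the median member was at 0.30. The median was 0.61 without WT replicate 3 and 0.07 without WT replicate 2, and leaving out each library in turn gave 49 to 62 members above 0. Of the 67 members other than Hist1h2al, 5 were called, where 8.43% of all genes were. Called higher were 3, where 3.51% of all genes were called higher: Gm42743, Hist3h2a and Hist2h2bb. The call of Gm42743 is a description only. Called lower were 2, where 4.92% of all genes were called lower: Hist2h2aa2 and Hist1h4m. Every p300KO_Tet2KO library was above every WT library in 3 of the 67, where 13.7% of all genes were, and below in 2, where 13.8% were. Without WT replicate 3 there were 11 calls among the 67, where 6.23% of all genes were called.

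Hist3h2a (chr11:58954685-58956830, plus strand) encodes an H2A. It was at 209, 363 and 302 CPM in p300KO_Tet2KO, 282, 305 and 271 CPM in Tet2KO, 161, 266 and 188 CPM in p300KO and 169, 130 and 92.6 CPM in WT. It rose in p300KO_Tet2KO vs WT (1.16, SE 0.24, adjusted p = 0.00943 by edgeR), a call kept under all 14 alternatives, and in Tet2KO vs WT the value was 1.13 (SE 0.24, adjusted p = 0.0586 by edgeR). Unlike most members, it was lowest in WT replicate 3, and so were its neighbours Hist3h2ba and Hist3h2bb-ps, at 2.23 and 1.34 CPM in that library. Trim17 overlaps it on the same strand, at 2.11 to 4.85 CPM.

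Hist2h2bb (ENSMUSG00000105827.1, chr3:96269752-96270132, plus strand) encodes an H2B. It was at 148, 127 and 148 CPM in p300KO_Tet2KO, 103, 108 and 141 CPM in Tet2KO, 118, 138 and 132 CPM in p300KO and 57.6, 37.6 and 108 CPM in WT. It rose in p300KO_Tet2KO vs WT (1.07, SE 0.28, adjusted p = 0.0314 by edgeR), and the call was lost without WT replicate 1 or 2, without any 1 of the p300KO_Tet2KO libraries, with only the 6 libraries compared and with a sex covariate. The antisense gene Gm20628 covers it, at 259 to 376 CPM in p300KO_Tet2KO, 263 to 319.8 in Tet2KO, 256 to 332 in p300KO and 94.4 to 221 in WT. Since use of the strand in counting is not given, reads of both cannot be told apart.

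In the interaction, which asks whether the p300KO difference depends on the Tet2 label, 65 of 68 members were below 0 and the median was -0.57, where 50.1% of all genes were above 0. The median was -0.85 without WT replicate 3 and -0.34 without WT replicate 2, and leaving out each library in turn gave 2 to 12 members above 0. With 0 members called, where 0.0% of all 17842 genes were called, 16 members (23.5%) had an unadjusted p under 0.05, where 7.11% of all genes did. DESeq2 called 1 member, Hist1h2bq, and 49 genes, and limma-voom called 0 genes. The values at the ends were Hist1h2ao (-1.82, adjusted p = 0.724), Hist1h2bq (-1.55, adjusted p = 0.384), Hist1h2aj (0.44, adjusted p = 0.909) and Gm42743 (0.59, adjusted p = 0.84 by edgeR).

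**Figure D5:**
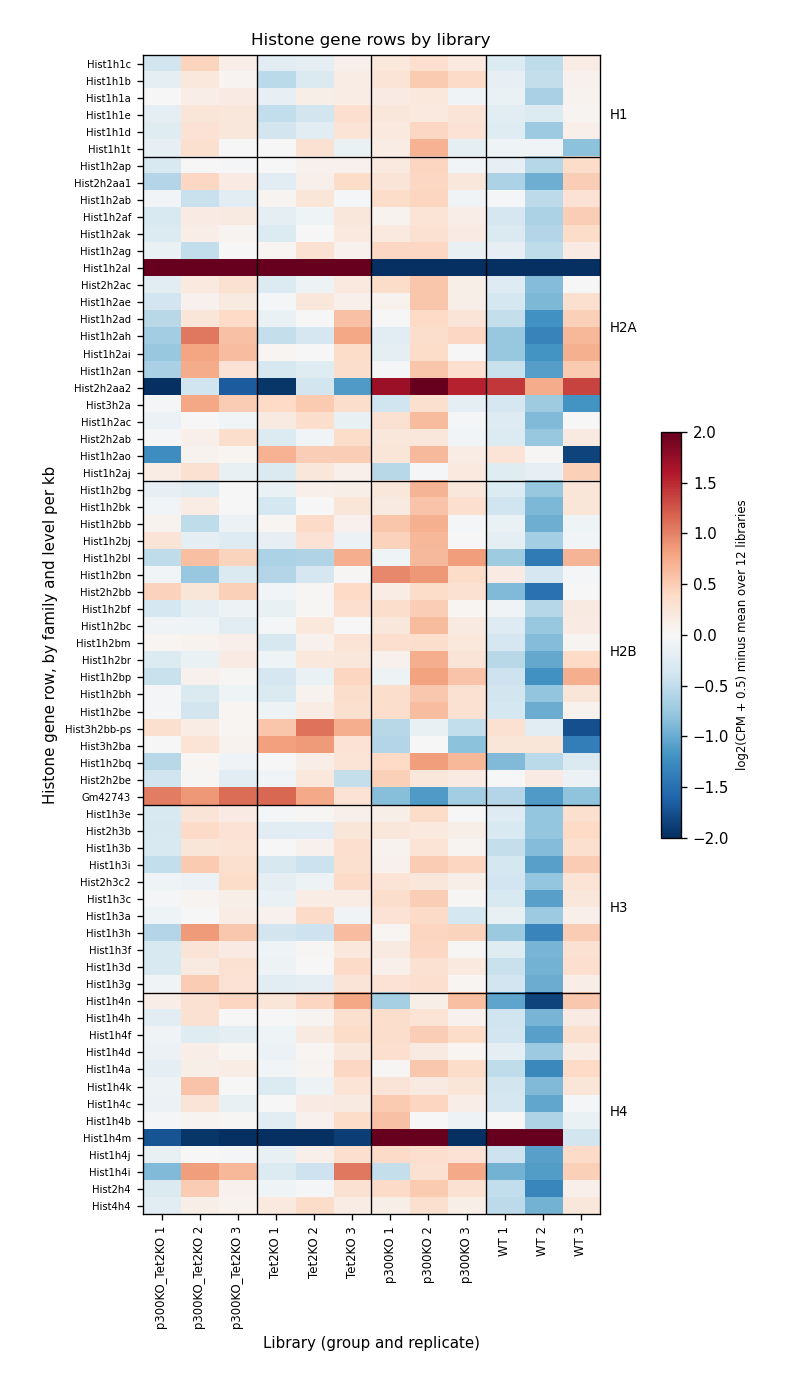
Log2(CPM + 0.5) of each of the 68 rows minus its mean over the 12 libraries, by library (columns) and by family and level per kb (rows). Colours run between -2 and 2 and values beyond are drawn at the ends; most rows are lowest in WT replicate 2, and Hist1h2al, Hist2h2aa2 and Hist1h4m stand out as rows that reach the ends of the scale.

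Some members varied strongly between libraries of 1 group, and those named here were chosen after their values were seen. Hist1h4i, which encodes H4, was at 33.6, 112 and 99 CPM in p300KO_Tet2KO, 51.2, 46.7 and 129.6 CPM in Tet2KO, 44.3, 76.7 and 106 CPM in p300KO and 32.1, 28.4 and 86.9 CPM in WT. In WT and Tet2KO replicate 3 was above both other libraries, and in p300KO_Tet2KO replicate 1 was below both others. In Hist1h2bl, Hist1h2ah and Hist1h3h the same replicate stood apart in each of these 3 groups, though the order of the others was not always the same. Hist1h2bl was at 75.6, 46.3 and 198 CPM in WT.

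The lists of other genes of histone biology gave few calls. Of 18 genes of histone mRNA transcription and 3′ end processing, 0 were called in Tet2KO vs WT or p300KO vs WT, and 1 fell in p300KO_Tet2KO vs Tet2KO: Zcchc6, which encodes a terminal uridylyltransferase (-0.33, SE 0.07, adjusted p = 0.027 by edgeR). Slbp, which encodes the stem-loop binding protein, was at 0.17 there (adjusted p = 0.401 by edgeR). Of 21 genes of S phase and DNA replication and 14 histone chaperones, 0 were called in any contrast. In p300KO vs WT, 3 of the 21 S phase genes were above 0 with a median of -0.07, where 64 of 68 histone members were. In Tet2KO vs WT 1 of the 21 was above 0 (median -0.24). In p300KO_Tet2KO vs Tet2KO 20 of the 21 were above 0 (median 0.14), where 31 of 68 histone members were. In the interaction 20 of the 21 were above 0 (median 0.26), where 65 of 68 histone members were below 0. Pcna, the sliding clamp of DNA polymerase, was at -0.48 (adjusted p = 0.167) and the licensing helicase subunit Mcm3 at -0.33 (adjusted p = 0.37 by edgeR) in Tet2KO vs WT. Among the chaperones, Ipo4, an importin for histones, was at -0.38 (adjusted p = 0.237 by edgeR) in that contrast.

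The list of replication-independent histone variants, most of which have mRNAs with a poly(A) tail that are made outside S phase too, did show calls with the p300KO label. Of 11 tested, 1 rose and 1 fell in p300KO vs WT, 2 rose and 1 fell in p300KO_Tet2KO vs Tet2KO, and 0 were called in Tet2KO vs WT. H1f0, the linker histone of cells that have left the cycle, was at 113, 152 and 151 CPM in p300KO_Tet2KO, 97.0, 99.9 and 90.5 CPM in Tet2KO, 158, 153 and 160.2 CPM in p300KO and 93.8, 86.7 and 110.0 CPM in WT. It rose in p300KO vs WT (0.70, SE 0.12, adjusted p = 0.00647 by edgeR) and in p300KO_Tet2KO vs Tet2KO (0.54, SE 0.12, adjusted p = 0.0236 by edgeR). H2afy, which encodes macroH2A1, fell in both (-0.49, adjusted p = 0.0265, and -0.48, adjusted p = 0.0307 by edgeR). H2afy2, which encodes macroH2A2, rose in p300KO_Tet2KO vs Tet2KO (1.21, SE 0.24, adjusted p = 0.0135 by edgeR) and was at 0.79 in p300KO vs WT (adjusted p = 0.0872 by edgeR).

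Of the 12 other RNAs without a poly(A) tail, 8 were tested, and all 8 were above 0 in p300KO vs WT (median 0.89) and in Tet2KO vs WT (median 0.63). Rn7s2, an RNA of the signal recognition particle, rose in p300KO vs WT (1.13, SE 0.29, adjusted p = 0.0488 by edgeR), and the other 7 were not called there. It was at 8668, 9795 and 11634 CPM in p300KO and 4916, 2331 and 6462 CPM in WT. In the interaction 0 of the 8 were above 0 and the median was -1.14. In p300KO_Tet2KO vs Tet2KO the median of the 8 was -0.41, where that of the histone members was -0.03. The part of these RNAs in the histone result was not tested.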

How the data were processed

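RNA-seq of LSK cells was available for 12 libraries in 4 groups of 3, grouped by the GEO labels. Per the labels and methods, the authors depleted ribosomal RNA, made libraries with the Universal Plus mRNA-Seq kit and sequenced paired ends. They made expected counts per gene with RSEM 1.3.0 and STAR 2.6.0c on mm10, and these are the deposited values. The Gencode release and the strand setting are not given in the sources used here. Expected counts were rounded to whole numbers. Genes passing filterByExpr (17842 of 46517) were fitted with edgeR 4.0.16 (R 4.3.3), TMM scaling and the quasi-likelihood test, in 1 model over 12 libraries. P-values were adjusted by Benjamini-Hochberg over all genes, and a call is an adjusted p under 0.05. SE was taken from the log2 fold change and F statistic of each gene. The fit was tested on simulated data. Coordinates, transcripts and gene types come from Gencode vM21, and promoters from RefSeq (GRCm38.p6).

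Named members were Hist1h2al with its near-identical copies and neighbours, the called members or the ends in each comparison, the highest by level per kb, and the genes with the smallest p in each list. Copies were taken by transcript identity, since no protein table was used. The members and lists were chosen with earlier results of these data known. Alternatives were DESeq2 1.42.0, limma-voom (limma 3.58.1), DESeq2 size factors, other filters, the 6 libraries compared alone, a replicate block, a sex covariate from Y-linked genes, near-identical copies summed, and leaving out each library.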

Additional observations from a re-analysis of the deposited data

How the results depend on the processing

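Counts of members called changed with the processing, and the cause was not tested except where stated. In Tet2KO vs WT, p300KO_Tet2KO vs p300KO and p300KO_Tet2KO vs WT they are over the 67 members other than Hist1h2al, and elsewhere over all 68. In Tet2KO vs WT, with 1 call, there were 4 with the DESeq2 Wald test, 4 with no filter, 0 with only the 6 libraries compared and 1 with near-identical copies summed. In p300KO vs WT, with 1 call, there were 13 with the DESeq2 Wald test, 7 with limma-voom, 8 with no filter, 2 with only the 6 libraries compared, 3 with the sex covariate and 0 with near-identical copies summed. In p300KO_Tet2KO vs Tet2KO, with 0 calls, the DESeq2 Wald test, limma-voom and no filter gave 1 each. Summing near-identical copies, an alternative chosen after seeing the data, tests fewer rows and merges Hist1h2al with its copies. It gave 1 call in place of 3 in p300KO_Tet2KO vs p300KO and 3 in place of 5 in p300KO_Tet2KO vs WT. In the interaction, with 0 calls, the DESeq2 Wald test gave 1. Leaving out 1 library gave 0 to 4 calls in Tet2KO vs WT, 1 to 26 in p300KO vs WT and 0 in p300KO_Tet2KO vs Tet2KO. It gave 0 to 3 in p300KO_Tet2KO vs p300KO, 2 to 11 in p300KO_Tet2KO vs WT and 0 to 1 in the interaction. The upper ends of 5, 26 and 12 came without WT replicate 3. The planned sums over members with the same protein were not run, because no protein table was used. Same-numbered libraries did not deviate together (correlations between -0.15 and 0.14, median 0.03), so the numbers were not taken to pair them. With the replicate block there were 3 calls in Tet2KO vs WT, 3 in p300KO vs WT and 1 in the interaction. Of 573 values of named members under the alternatives, 29 lost the call and 27 gained it, and no called value changed sign in a row of its own (Hist1h4m summed with Hist1h4n did, as given above). Values never called crossed 0 in 6 cases: Gm42743 and Hist1h2al in p300KO vs WT, Hist1h2bn, Hist2h2aa2 and Hist3h2a in p300KO_Tet2KO vs Tet2KO, and Hist1h4n in p300KO_Tet2KO vs p300KO. Sharing of 100-base windows limits what single rows can show, and 4 members had a mean under 2 CPM.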
